A study of Mus musculus with 9 samples.

Results

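Rab GTPases were examined in bone marrow cells of mice with mutant Jak2. The Rab genes were all genes of the deposited count table whose symbol is Rab followed by a number and at most a letter and a digit, and there were 57 of them among 17769 genes. The sorted cells were MEP, that is, progenitors of megakaryocytes and red cells, and the series concerns metabolism in Jak2 mutant blood cells. The kinase Jak2 works below the erythropoietin and thrombopoietin receptors, and activating mutations in it drive myeloproliferative neoplasms. RNA extracted with a PicoPure kit was made into Smart-Seq2 libraries, which copy whole transcripts without recording their strand.

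The VF group carried SclCre and the V617F allele and was taken 12 weeks after tamoxifen. The E12 group carried SclCre and the Exon12 allele and was taken after 6 weeks, so it differs from both other groups in time as well. The WT group was taken after 12 weeks, and its label does not say whether it carried SclCre. SclCre is a recombinase driven by elements of the Scl gene, which is active in blood stem and progenitor cells. All groups were C57BL/6N, and the growth protocol describes 5 daily intraperitoneal tamoxifen injections for inducing the mutations. Each group had 3 libraries, named VF 1, 2 and 3, E12 1, 2 and 5, and WT 50, 51 and 52. The labels do not say whether these came from separate mice, so p-values measure only the spread between libraries, which may be technical.

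The libraries of the groups were not alike. VF libraries held 19256431 to 21331168 counts, E12 libraries 20328414 to 23499914 and WT libraries 33838681 to 39736096. Genes without a count made up 10.7% to 12.4% of the table in VF, 12.4% to 18.7% in E12 and 27.2% to 30.1% in WT. Genes shorter than 1 kb took 8.24% to 8.97% of the counts in VF, 6.92% to 8.79% in E12 and 11.2% to 27.9% in WT, with the highest share in WT 50. The identifiers in the descriptions of the WT libraries come from another run of numbers than those of the mutant libraries, so genotype and the making of the libraries cannot be told apart. Markers also went with the groups. Summed over 13 erythroid markers, levels were 1172 to 1791 CPM (counts scaled to the library's size with TMM factors) in VF, 8831 to 34732 CPM in E12 and 23879 to 43365 CPM in WT. In bulk RNA, fewer cells of a type and less RNA per cell cannot be told apart.

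Rab proteins are small GTPases that mark membranes. In the GTP-bound state a Rab sits on a vesicle or organelle through its prenyl anchors and recruits effectors such as tethers, coats and motors. Exchange factors switch it on, GTPase-activating proteins switch it off, and GDI proteins take the inactive form off the membrane. In the platelet lineage Rab27 and the pair Rab32 and Rab38 are known for making and releasing dense granules, which are lysosome-related organelles. In erythroid cells recycling Rabs return the transferrin receptor to the surface.

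The windows from 250 bases before to 50 bases after the start of 4 genes picked from those described below follow, taken from RefSeq on GRCm38.p6. For Rab27a 2 windows were listed, and not all are printed. Rab27a, Rab32 and Rab31 were higher in VF cells and Rab8a was lower. Capitals mark a match to one of 5 short motifs of blood transcription factors on either strand. The motifs were AGATAA for GATA factors, TGAGTCA for NF-E2 and AP-1, TGTGGT for RUNX factors, CGGAAG for ETS factors and CCACACCC for KLF factors.
Rab27a (chr9:73044560-73044859, plus strand): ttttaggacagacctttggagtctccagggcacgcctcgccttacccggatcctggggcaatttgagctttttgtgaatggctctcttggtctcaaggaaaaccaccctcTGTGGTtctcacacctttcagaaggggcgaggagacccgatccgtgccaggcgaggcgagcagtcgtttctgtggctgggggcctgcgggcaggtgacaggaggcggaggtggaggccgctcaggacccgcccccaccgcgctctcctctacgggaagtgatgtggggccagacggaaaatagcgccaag
Rab32 (chr10:10558158-10558457, minus strand): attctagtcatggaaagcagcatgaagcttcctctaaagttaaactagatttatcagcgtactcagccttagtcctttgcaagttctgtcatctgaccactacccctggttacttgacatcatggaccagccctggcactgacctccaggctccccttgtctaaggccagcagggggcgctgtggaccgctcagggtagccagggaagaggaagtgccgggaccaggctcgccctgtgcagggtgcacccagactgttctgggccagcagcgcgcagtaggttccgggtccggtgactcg
Rab31 (chr17:65772703-65773002, minus strand): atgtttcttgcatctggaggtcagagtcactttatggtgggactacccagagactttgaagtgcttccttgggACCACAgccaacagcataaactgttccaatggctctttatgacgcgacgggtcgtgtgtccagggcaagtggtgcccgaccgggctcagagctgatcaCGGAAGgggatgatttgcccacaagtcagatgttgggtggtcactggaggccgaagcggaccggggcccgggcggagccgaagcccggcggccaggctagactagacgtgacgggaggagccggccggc
Rab8a (chr8:72160950-72161249, plus strand): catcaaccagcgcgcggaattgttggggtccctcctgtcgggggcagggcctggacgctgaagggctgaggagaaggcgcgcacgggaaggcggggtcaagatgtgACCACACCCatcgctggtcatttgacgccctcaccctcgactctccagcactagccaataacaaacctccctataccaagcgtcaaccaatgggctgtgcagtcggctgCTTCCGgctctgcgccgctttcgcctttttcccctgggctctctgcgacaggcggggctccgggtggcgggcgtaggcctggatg

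The printed Rab27a window held the RUNX letters at -140 from the start, and the Rab31 window held RUNX letters at -177 and ETS letters at -79. In the Rab8a window the RUNX match at -144 overlapped the KLF match at -143, and an ETS match stood at -35. The Rab32 window held none of the 5 motifs. Of the 57 Rab genes, 46 had at least 1 window in the table, 58 windows in all. ETS letters were in 29.3% of these and in 16.9% of all 32851 windows, and RUNX letters in 17.2% and 16.8%. KLF letters were in 5.17% of Rab windows and 3.56% of all windows, TGAGTCA in 5.17% and 5.20%, and AGATAA in 3.45% and 11.2%. These are letter matches only, and several windows can belong to 1 gene.

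All 57 genes had a count in at least 1 VF library and in at least 1 E12 library, and 8 had no count in any WT library. A mean of at least 10 CPM was reached by 34 Rab genes in VF, 34 in E12 and 29 in WT. Per gene length, the order of the leading Rabs differed between groups. In VF the highest levels were those of Rab1b, which moves cargo from the endoplasmic reticulum to the Golgi, at 124 RPKM (CPM per kilobase of the deposited gene length), Rab38 at 119.8 and Rab8a at 108 RPKM. In E12 they were Rab1b at 111 RPKM, the late endosome Rab7 at 106 and Rab8a at 98.9 RPKM. In WT they were Rab8a at 284 RPKM, Rab4a at 259.6 and Rab11a at 165 RPKM, which are all Rabs of recycling or of delivery to the plasma membrane. The place of Rab11a rested on WT 50, which held 315 RPKM, against 94.7 and 86.5 RPKM in WT 51 and WT 52. Without WT 50 the third was Rab1b at 190.2 RPKM, and Rab11a averaged 90.6 RPKM.

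**Figure D1:**
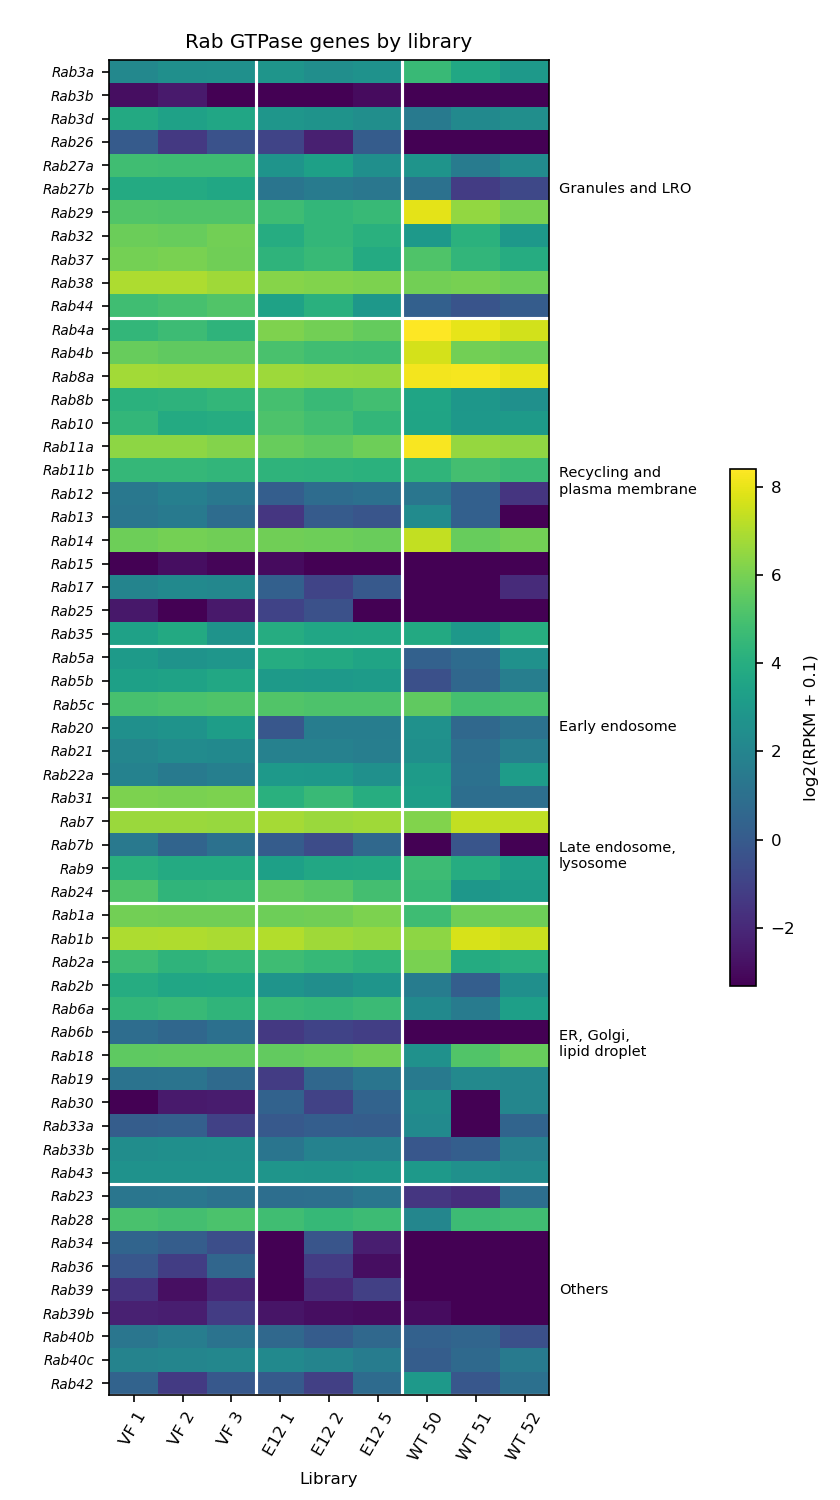
Each cell gives the level of 1 of the 57 Rab genes (rows, grouped by role) in 1 library (columns, VF, E12 and WT) as log2(RPKM + 0.1). Granule genes such as Rab27a, Rab27b and Rab32 are brightest in the 3 VF libraries, and Rab4a and Rab8a in the 3 WT libraries.

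Grouped by role, Rabs of secretory granules and lysosome-related organelles made up 26.4% ± 0.22 of the summed Rab RPKM in VF, 14.9% ± 1.18 in E12 and 14.1% ± 3.31 in WT (SD, n = 3 each). Recycling and plasma membrane Rabs made up 28.6% ± 0.55 in VF, 34.2% ± 0.76 in E12 and 53.8% ± 7.89 in WT. Early endosome Rabs made up 9.74% ± 0.61 in VF, 7.93% ± 0.54 in E12 and 3.31% ± 0.69 in WT. The granule share was higher in each VF library than in any other library, and the recycling share was higher in each WT library than in any mutant library. Such a share, compared exactly by permutation between groups of 3, could not reach a p below 0.1, so no test was made. The roles were also chosen with earlier results of these data known.

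**Figure D2:**
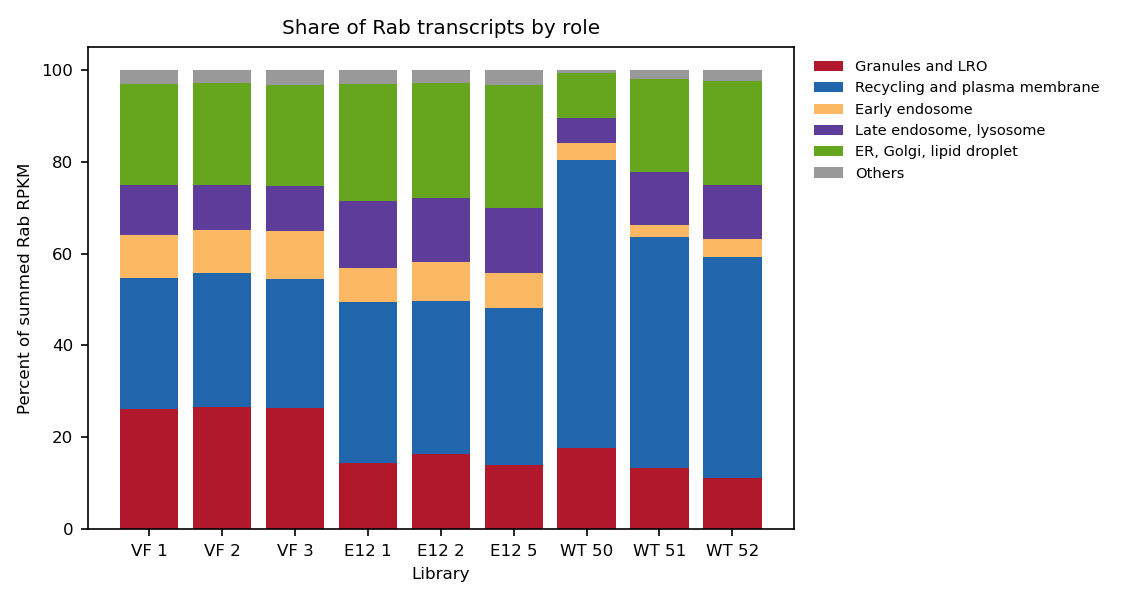
Stacked bars give the percent of the summed Rab RPKM that falls to each role in each of the 9 libraries. Granule Rabs (red, LRO for lysosome-related organelles) stand at 26.1% to 26.5% in VF, 14.04% to 16.3% in E12 and 11.2% to 17.7% in WT, and recycling Rabs (blue) are highest in WT 50 at 62.8%.

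In VF against WT, which asks how cells with V617F differ from wild-type cells at the same time, 20 Rab genes rose and 5 fell. The counts are of 53 Rab genes with enough counts, tested with the quasi-likelihood method of edgeR in 1 fit of all 9 libraries. Calls are at an adjusted p under 0.05, with Benjamini-Hochberg adjustment over all 13608 tested genes, and each log2 fold change is given ± its SE. Rab15, Rab25, Rab39b and Rab3b were not tested, and none passed the 1.09 CPM of Rab39b in a VF library. Summed over a group, Rab39b had 46 counts in VF, 10 in E12 and 2 in WT, Rab25 had 4, 29 and 0, Rab3b 10, 2 and 0, and Rab15 4, 2 and 0. Over all tested genes 27.7% were called higher and 20.9% lower, against 37.7% and 9.43% of the tested Rab genes. The median log2 fold change was 0.94 over the Rab genes and 0.36 over all genes. A second reading used offsets for gene length and GC content that also set each library's mean log2 level equal, called level-matched offsets below, whereas centred offsets correct only the slopes over length and GC. With level-matched offsets the median of all genes moved to -0.54 and that of the Rab genes to 0.21, and 14 Rab genes rose and 12 fell, 26.4% and 22.6%, against 14.5% and 36.8% of all genes. Of these, 13 and 5 were among the calls above, and the genes added to those that fell were Rab1a, Rab1b, Rab7, Rab11a, Rab11b, Rab14 and Rab43. A fit of the VF and WT libraries alone called 17 of 52 Rab genes higher and 3 lower, 32.7% and 5.77%, against 21.3% and 16.2% of all genes in it.

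Granule Rabs held many of the calls. Of 10 tested, 8 rose and 2 fell, and their median log2 fold change was 1.89, while with level-matched offsets 6 rose and 2 fell, with a median of 1.14. Of all tested genes 27.7% rose and 20.9% fell without these offsets. The roles were chosen with earlier results of these data known, so the counts by role are descriptive. Rab44, a large Rab with calcium-binding EF hands that is known from mast cells and osteoclasts, had 114, 129.8 and 154 CPM in VF 1, 2 and 3, 44.1, 71.5 and 30.5 CPM in E12 1, 2 and 5 and 4.58, 3.02 and 3.91 CPM in WT 50, 51 and 52. Every VF library stood above every E12 library and these above every WT library. For VF against WT its log2 fold change was 5.11 ± 0.39 (adjusted p = 0.00012). The gene (Entrez 442827) lies at chr17:29114128-29148980 on GRCm38 by RefSeq, as do the positions that follow.

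Rab27a and Rab27b tie granules to the plasma membrane before release, and mice without Rab27b have a defect of platelet dense granules. Rab27b had 107, 109 and 93.8 CPM in VF, 17.1, 21.3 and 17.8 CPM in E12 and 14.7, 2.46 and 3.57 CPM in WT, with WT 50 the highest of its group. Its VF and WT libraries did not overlap, and its log2 fold change was 3.91 ± 0.63 (adjusted p = 0.0015). Rab27a (Entrez 11891, chr9:73044810-73097623), whose promoter window is printed above, had 95.9, 92.1 and 94.4 CPM in VF, 22.6, 35.0 and 19.1 CPM in E12 and 22.7, 9.78 and 16.9 CPM in WT. VF stood apart from both other groups, which overlapped each other. For VF against WT its log2 fold change was 2.52 ± 0.36 (adjusted p = 0.00094). A processed pseudogene, Gm27186, shares 149 exon bases with Rab27a, and reads there cannot be told apart.

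Rab32 and Rab38 bring cargo to lysosome-related organelles and are switched on by the complex of Hps1 and Hps4. Rab32 (Entrez 67844, chr10:10545039-10558207) had 112, 104 and 123 CPM in VF, 30.9, 44.3 and 35.8 CPM in E12 and 16.5, 37.1 and 15.6 CPM in WT. VF did not overlap WT, and its log2 fold change was 2.29 ± 0.36 (adjusted p = 0.0014). Rab38 had 199, 199 and 169 CPM in VF, 123, 114 and 106 CPM in E12 and 95.6, 102 and 89.9 CPM in WT. The 3 groups did not overlap, and the log2 fold change of VF against WT was 0.98 ± 0.20 (adjusted p = 0.0044).

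Rab37, found on secretory granules of mast cells and other cells, had 175, 183 and 163 CPM in VF, 54.3, 67.7 and 40.4 CPM in E12 and 102, 58.0 and 42.1 CPM in WT. VF was above both other groups, and WT 50 was above every E12 library. Its log2 fold change in VF against WT was 1.37 ± 0.34 (adjusted p = 0.01), and the call was lost without WT 51 or WT 52 (adjusted p = 0.097 and 0.057) and with centred and level-matched offsets (0.086 and 0.72, log2 fold changes 1.03 and 0.21). Rab3d, known from granules of exocrine and mast cells, averaged 46.7 ± 6.67 CPM in VF and 16.5 ± 5.47 CPM in WT (SD, n = 3 each), a log2 fold change of 1.5 ± 0.30 (adjusted p = 0.0043). Rab26 had 71 counts over the VF libraries and none in WT, at least 24.1-fold higher against 3 counts over the WT group.

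Rab3d lost its call with level-matched offsets (0.15, adjusted p = 0.64). The calls of Rab44, Rab27b, Rab27a, Rab32 and Rab38 held with them, at log2 fold changes of 3.56, 1.84, 1.16, 1.90 and 1.11.

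The granule Rabs that fell were Rab29 and Rab3a. Rab29, which acts at the Golgi and on lysosomes and recruits the kinase Lrrk2, had 43.9, 43.3 and 42.3 CPM in VF, 32.1, 25.5 and 28.4 CPM in E12 and 289, 107 and 78.4 CPM in WT. Both mutant groups lay below all WT libraries, and WT 50 was far above the other WT libraries. Its log2 fold change in VF against WT was -1.87 ± 0.44 (adjusted p = 0.0079), which came to -0.29 (0.23) with centred offsets. Rab3a, a Rab of regulated secretion best known from nerve terminals, averaged 7.61 ± 1.11 CPM in VF and 21.9 ± 12.9 CPM in WT (SD, n = 3 each), and its call (log2 fold change -1.52, adjusted p = 0.019) was lost without any 1 VF library (adjusted p from 0.055 to 0.075) and with centred offsets (0.38).

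Levels of markers of further cell types were also read. Summed levels of 11 megakaryocyte markers were 2094 to 2703 CPM in VF, 411 to 495 CPM in E12 and 62.1 to 178 CPM in WT, where Itgb3 and Ppbp were at 0. Those of 7 neutrophil and monocyte markers were 6721 to 12692 CPM in VF, 1227 to 2186 CPM in E12 and 137 to 741 CPM in WT. Those of 7 stem and multipotent progenitor markers were 1061 to 1116 CPM in VF, 220 to 426 CPM in E12 and 14.9 to 22.6 CPM in WT, where Mecom and Procr were at 0. For 5 mast cell and basophil markers they were 299 to 344 CPM in VF, 38.3 to 171 CPM in E12 and 26.2 to 133 CPM in WT. For 6 lymphoid markers they were 557 to 713 CPM in VF, 217 to 570 CPM in E12 and 386 to 4462 CPM in WT. Of these markers 10 of 11, 5 of 7, 6 of 7 and 3 of 5 rose in VF against WT in the first 4 lists, and 2 of 5 tested lymphoid markers fell. Of all tested genes 27.7% rose and 20.9% fell. The part of these markers in the results on granule Rabs was not tested.

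**Figure D3:**
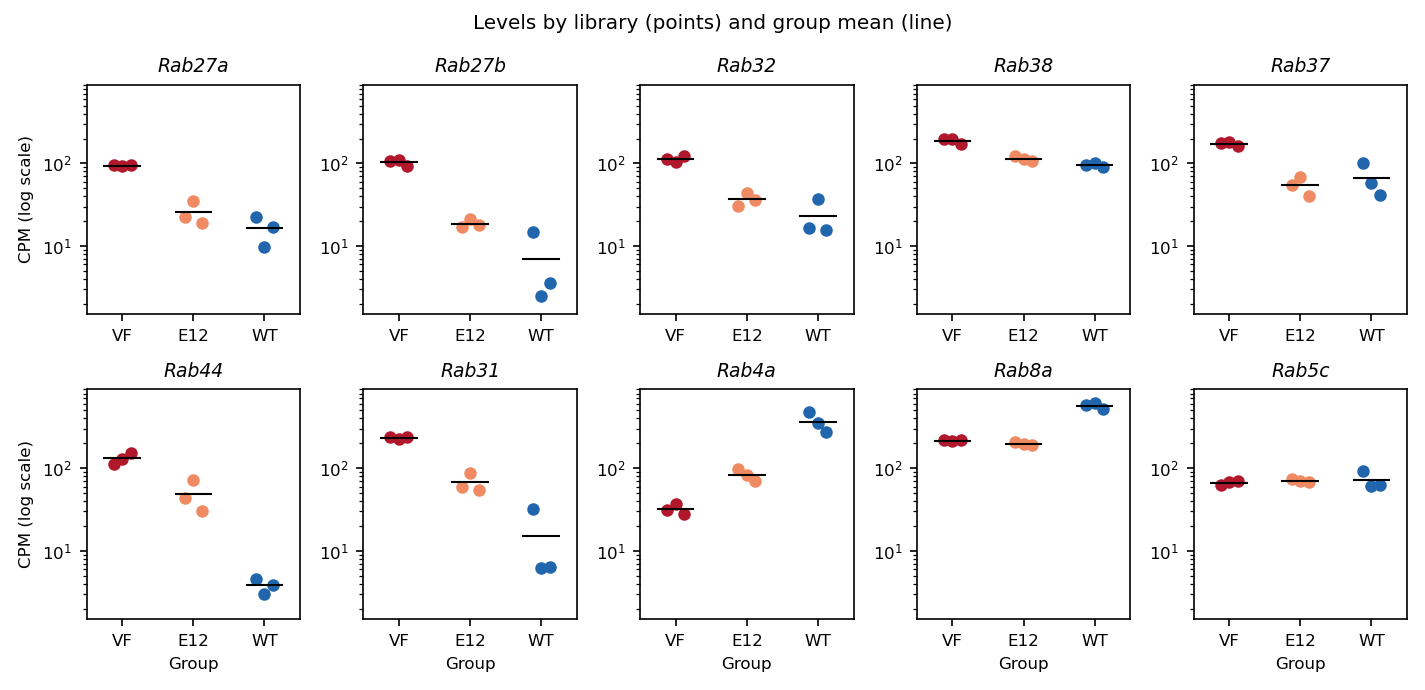
Points give the CPM of 10 Rab genes in each library, on a log scale, and lines give the group means. For Rab27a, Rab27b, Rab32, Rab37, Rab44 and Rab31 the VF points lie above those of E12 and WT, for Rab4a and Rab8a the WT points lie highest, and for Rab5c the groups overlap.

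Recycling and plasma membrane Rabs were split. Of 12 tested, 3 rose and 2 fell in VF against WT, with a median log2 fold change of -0.25. Of all tested genes 27.7% rose and 20.9% fell. Rab4a, which returns receptors such as the transferrin receptor from early endosomes by the fast route, had 30.9, 37.2 and 27.8 CPM in VF, 97.8, 83.4 and 70.8 CPM in E12 and 478, 351 and 271 CPM in WT. The 3 groups did not overlap, with VF lowest and WT highest. Rab4a fell in VF by a log2 fold change of -3.52 ± 0.30 (adjusted p = 0.00017), and the gene (Entrez 19341) lies at chr8:123805846-123835291. The call held under each alternative run, offsets included. Erythroid markers also fell in VF, 11 of 13 against WT, where 20.9% of all tested genes fell. The part of these markers in the change of Rab4a was not tested.

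Rab8a, which carries vesicles from the Golgi and recycling endosomes to the plasma membrane, had 219, 213 and 217 CPM in VF, 210.2, 195 and 191 CPM in E12 and 583, 608 and 526 CPM in WT. Both mutant groups were below all WT libraries. Against WT the log2 fold change in VF was -1.40 ± 0.22 (adjusted p = 0.0013), but -0.16 (0.55) by limma on the log2 levels the authors deposited. The gene (Entrez 17274) lies at chr8:72161200-72181366. Its close relative Rab8b had 85.3, 90.1 and 102 CPM in VF, 146, 115 and 138 CPM in E12 and 55.3, 34.8 and 27.7 CPM in WT, with every mutant library above every WT library. Rab8b had a log2 fold change in VF of 1.24 ± 0.28 (adjusted p = 0.0069), a call lost without WT 51 (0.92, adjusted p = 0.072), with centred offsets (0.34, 0.43) and with level-matched offsets, where the sign turned (-0.47, 0.29). A processed pseudogene, Gm20689, matches Rab8b exactly over 279 bases.

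Rab10, which brings vesicles such as those with glucose transporters to the plasma membrane, averaged 60.1 ± 13.9 CPM in VF and 32.0 ± 7.16 CPM in WT (SD, n = 3 each; log2 fold change 0.91, adjusted p = 0.024), a call that was also lost with centred offsets (0.37, 0.39), with level-matched offsets, where the sign turned (-0.44, 0.33), and without VF 1, WT 51 or WT 52 (adjusted p from 0.1 to 0.17). Rab17, known from polarised epithelia, averaged 8.21 ± 0.861 CPM in VF and was seen in WT 52 alone of the WT libraries, and it rose (adjusted p = 0.0055). Rab11a, the Rab of the slow recycling endosome, had 196, 196 and 173 CPM in VF, 119.8, 105 and 133 CPM in E12 and 735, 221 and 202 CPM in WT. WT 50 held more than 3 times the level of the other WT libraries, and the log2 fold change of VF against WT was -1.03 ± 0.47 (adjusted p = 0.095). Rab11a was lower without WT 51 (-1.59, adjusted p = 0.04) or WT 52 (-1.65, 0.015), by DESeq2 (-1.29, 0.037) and with level-matched offsets (-2.11, 0.017), while the deposited levels gave 0.38 (0.18). Rab14, which links the Golgi with endosomes, had a log2 fold change of -0.61 ± 0.41 (adjusted p = 0.24), and its highest library was also WT 50. It was lower without WT 52 (-1.15, adjusted p = 0.048) and with level-matched offsets (-1.94, 0.014), near 0 without WT 50 and E12 5 (0.004, 0.98), and higher on the deposited levels (0.63, 0.024).

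Early endosome Rabs had a median log2 fold change of 1.17, against 0.36 over all tested genes. Of these 7 Rabs 2 rose, where 27.7% of all tested genes rose. Rab31, a relative of Rab5 that acts between the Golgi and endosomes, had 237, 227 and 236 CPM in VF, 60.1, 86.5 and 55.2 CPM in E12 and 32.6, 6.17 and 6.32 CPM in WT. The 3 groups did not overlap, and VF was highest. The log2 fold change of VF against WT was 3.96 ± 0.66 (adjusted p = 0.0018) and 2.44 with level-matched offsets (0.019), and the gene (Entrez 106572) lies at chr17:65651726-65772752.

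The Rab5 proteins drive fusion of early endosomes, and the 3 genes differed. Rab5b had 31.6, 34.5 and 41.8 CPM in VF, 26.7, 24.8 and 26.8 CPM in E12 and 1.99, 4.42 and 10.1 CPM in WT. Every mutant library was above every WT library, and the log2 fold change in VF was 2.70 ± 0.52 (adjusted p = 0.0034). A processed pseudogene, Gm13991, matches Rab5b over 648 bases at 99.4% identity. Rab5a had 19.7, 15.1 and 16.9 CPM in VF, 36.0, 32.5 and 27.0 CPM in E12 and 2.71, 3.83 and 14.3 CPM in WT, and its log2 fold change in VF of 1.30 ± 0.57 missed the threshold (adjusted p = 0.084). Rab5a was higher without WT 52, its highest WT library (2.12, adjusted p = 0.00071), by DESeq2 (1.24, 0.037), by limma-voom (1.60, 0.024) and with centred offsets (1.54, 0.028). It had no call with level-matched offsets, on the deposited levels or in the fit of VF and WT alone. Rab5c, with 66.9 ± 3.65 CPM in VF and 71.5 ± 17.8 CPM in WT (SD, n = 3 each), had a log2 fold change of -0.10 ± 0.22 (adjusted p = 0.74).

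No late endosome Rab of 4 was called in VF against WT by edgeR, none by DESeq2, and 0 had an unadjusted p under 0.05. By limma-voom Rab24 and Rab7b rose (1.2 and 6.06, adjusted p = 0.039 and 0.0062; 36.3% of all genes were called higher). With centred offsets Rab24 and Rab9 rose (1.44 and 1.02, adjusted p = 0.043 and 0.015; 24.2% of all genes). Rab7b was also higher on the deposited levels (4.98, 0.037) and called without WT 51 (adjusted p = 0.0012), and Rab24 without WT 50 (1.55, 0.0022). Rab7, which matures late endosomes and lysosomes, had 257, 264 and 249.5 CPM in VF and 188, 425 and 409 CPM in WT, where WT 50 was far below WT 51 and WT 52. Its log2 fold change was -0.41 ± 0.32 (adjusted p = 0.31), -0.83 (0.00071) without WT 50, -1.23 (0.00057) with level-matched offsets and 0.66 (0.11) on the deposited levels. A processed pseudogene, Rab7-ps1, matches Rab7 over 622 bases at 98.4% identity. Of 12 Rabs of the endoplasmic reticulum, Golgi and lipid droplets 4 rose and 1 fell by edgeR, where 27.7% of all tested genes rose and 20.9% fell. Rab6a, which runs traffic back through the Golgi, had 71.1, 78.6 and 67.2 CPM in VF, 79.6, 74.7 and 85.0 CPM in E12 and 15.3, 9.53 and 32.3 CPM in WT, with every mutant library above every WT library. The fold change in VF was 1.92 ± 0.40 on the log2 scale (adjusted p = 0.0047), 0.80 with level-matched offsets (0.045), and 708 of its exon bases overlap Mrpl48 on the other strand.

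Rab6b, a relative of Rab6a known mainly from brain, had 619 counts over VF, 125 over E12 and 0 over WT, at least 210-fold higher in VF and at least 44.3-fold higher in E12 against 3 counts over the WT group. Rab2b and Rab33b also rose (log2 fold changes 2.07 and 1.66), and Rab30, with 0, 0.149 and 0.162 CPM in VF, against 7.72 CPM in WT 52, more in WT 50 and none in WT 51, fell (adjusted p = 0.03). Without any 1 VF library the call of Rab30 was lost (0.083 to 0.09). That of Rab33b (adjusted p = 0.033) was lost without any of 6 single libraries, each VF library, E12 2, E12 5 and WT 51 (0.0502 to 0.0841). The calls of Rab2b and Rab33b were lost with level-matched offsets (1.17 and 0.56, adjusted p = 0.066 and 0.28). Rab2b, which measures 2756 bases, overlaps Tox4 by 195 and Gm43766 by 2469 exon bases on the other strand. Rab1a and Rab1b had log2 fold changes of 0.33 ± 0.30 (adjusted p = 0.38) and -0.32 ± 0.33 (0.44). Without WT 50 these were -0.08 (0.66) and -0.75 (0.0048), while on the deposited levels Rab1a rose (0.97, 0.0072). Of the 8 other tested Rabs 3 rose, where 27.7% of all tested genes rose. They were Rab34, Rab36 and Rab39, with at least 46.5-fold, 57.1-fold and 10.9-fold higher levels in VF and no count in WT. The call of Rab39 was lost with centred and level-matched offsets (adjusted p = 0.055 and 0.066) and without any 1 library but E12 1 (0.0504 to 0.0937). The 28 Rab genes without a call in VF ran from Rab42 at -2.14 to Rab7b at 2.92 on the log2 scale.

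In E12 against WT, which differ in genotype and in the time after tamoxifen, 13 Rab genes rose and 6 fell of 53, 24.5% and 11.3%, against 23.9% and 18.1% of all tested genes. The share that rose was thus close to that of all genes. The median log2 fold change was 0.32 over the Rab genes and 0.36 over all genes. With level-matched offsets 8 rose and 10 fell, 15.1% and 18.9% against 10.7% and 27% of all genes, 7 and 5 of them as before, with medians of -0.09 over the Rab genes and -0.38 over all genes. A fit of the E12 and WT libraries alone called 6 of 49 Rab genes higher and 4 lower, 12.2% and 8.16%, against 12.7% and 10.5% of all genes in it. Without a call in it were Rab5a, Rab17, Rab24, Rab26, Rab31, Rab34 and Rab39 of the 13, and Rab3a and Rab11a of the 6. Of 10 granule Rabs 2 rose in the fit of all 9 libraries, Rab44 and Rab26, and 2 fell, Rab29 and Rab3a. Their median log2 fold change was 0.59, and -0.42 with level-matched offsets.

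Rab44 stood at 48.7 ± 20.9 CPM in E12 and 3.84 ± 0.783 CPM in WT (SD, n = 3 each), a log2 fold change of 3.67 ± 0.36 (adjusted p = 0.00059). Rab26 was at least 18.4-fold higher in E12 than in WT, where it had no count. Rab27b, Rab27a, Rab32, Rab38 and Rab37 missed the threshold in E12, with log2 fold changes of 1.45, 0.64, 0.68, 0.26 and -0.31. Their adjusted p-values were 0.069, 0.16, 0.14, 0.32 and 0.48. The E12 and WT libraries of Rab27b and Rab38 did not overlap, and those of the other 3 did. Without WT 50 both Rab27b (2.52, adjusted p = 9.4e-05) and Rab27a (0.84, 0.034) rose. Rab32 rose without WT 51 (1.02, 0.016) and with centred offsets (1.05, 0.031), and Rab37 fell without WT 52 (-0.86, 0.047) and with level-matched offsets (-1.34, 0.047). With level-matched offsets Rab38 rose (0.54, adjusted p = 0.03), as it did with centred offsets (1.15, 0.0016), and the signs of Rab27a and Rab27b turned (-0.57 and -0.27, adjusted p = 0.3 and 0.76). Rab29 had a log2 fold change of -2.46 ± 0.45 (adjusted p = 0.0043), and Rab3a of -1.29 ± 0.44 (0.042), which was lost without any 1 E12 or VF library (adjusted p from 0.066 to 0.13) and with centred (0.83) and level-matched offsets (0.11).

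Of 12 recycling Rabs 3 rose and 4 fell in E12, where 23.9% of all tested genes rose and 18.1% fell. Rab4a stood at 84.0 ± 13.5 CPM in E12 and 367 ± 105 CPM in WT (SD, n = 3 each), a log2 fold change of -2.13 ± 0.28 (adjusted p = 0.0014). Rab4b, its close relative, had 59.4, 53.8 and 54.6 CPM in VF, 38.2, 33.2 and 31.3 CPM in E12 and 233, 70.0 and 63.6 CPM in WT, with WT 50 far above the others. It fell in E12 (log2 fold change -1.84 ± 0.47, adjusted p = 0.013), a call lost with centred offsets (-0.35, 0.24) and without E12 2 or E12 5 (0.053 and 0.052). Rab4b also shares 1280 exon bases with the readthrough gene Gm21983 on the same strand.

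Rab8a had a log2 fold change of -1.52 ± 0.22 in E12 against WT (adjusted p = 0.0018), with -0.58 (0.056) on the deposited log2 levels. Rab11a fell by 1.69 on the log2 scale (SE 0.48, adjusted p = 0.02), and the call was lost without any 1 E12 library (0.055 to 0.075). Rab8b and Rab10 rose, with log2 fold changes of 1.76 ± 0.29 and 1.65 ± 0.28 (adjusted p = 0.0028 and 0.0035), and Rab17 rose as well (0.035), a call lost without any 1 E12 or VF library (0.059 to 0.09). The call of Rab8b was lost with centred (0.89, adjusted p = 0.072) and level-matched offsets (0.26, 0.6), and that of Rab10 with level-matched offsets (0.43, 0.37). In erythroid markers 2 of 13 rose and 4 fell in E12 against WT, and their part in the results on recycling Rabs was not tested. In the same comparison 7 of 11 megakaryocyte, 5 of 7 stem and multipotent progenitor and 2 of 7 neutrophil and monocyte markers rose. Of 5 mast cell and basophil markers 2 rose and 1 fell, and no lymphoid marker was called. Of all tested genes 23.9% rose and 18.1% fell in this comparison. The part of these markers in the results on granule Rabs in E12 was not tested.

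**Figure D4:**
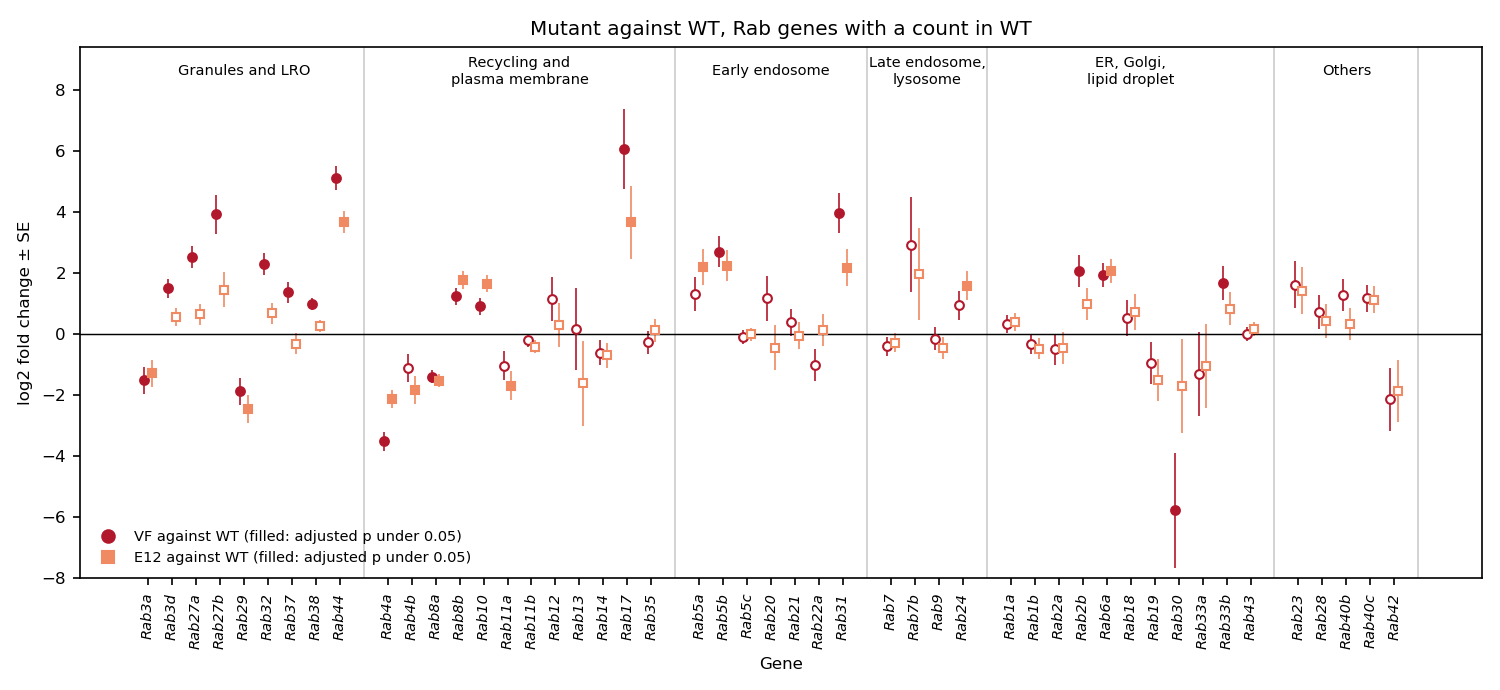
Points give the log2 fold change of VF (circles) and E12 (squares) against WT with its SE for each tested Rab gene with a count in WT, ordered by role, and filled points have an adjusted p under 0.05. VF circles of Rab3d, Rab27a, Rab27b, Rab32, Rab37, Rab38 and Rab44 lie above 0 and are filled, while of these only the E12 square of Rab44 is filled.

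Among early endosome Rabs 3 of 7 rose in E12, where 23.9% of all tested genes rose. The median log2 fold change of the 7 was 0.12, against 0.36 over all tested genes. Rab5a had a log2 fold change of 2.19 ± 0.58 (adjusted p = 0.016), Rab5b of 2.24 ± 0.51 (0.0089) and Rab31 of 2.17 ± 0.61 (0.02). In the fit of E12 and WT alone Rab5b was called, while Rab5a and Rab31 were not. Rab5a overlaps Pp2d1 by 221 exon bases on the other strand. The call of Rab31 was lost without E12 2, WT 51 or WT 52 (adjusted p = 0.065, 0.11 and 0.075) and with centred (0.14) and level-matched offsets (0.39). Rab5c had a log2 fold change of -0.01 ± 0.22 (0.97).

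Rab24, linked to autophagy, had 90.1, 78.5 and 55.7 CPM in E12 and 45.0, 13.8 and 16.3 CPM in WT and rose (log2 fold change 1.58 ± 0.47, adjusted p = 0.025). It overlaps Prelid1 by 1258 exon bases on the other strand, the libraries carry no strand, and the call was lost without E12 1, E12 2, WT 51 or WT 52 (adjusted p from 0.068 to 0.15) and with level-matched offsets (1.43, 0.051). Rab7 had a log2 fold change of -0.29 ± 0.32 (0.5), and -0.71 (0.0021) without WT 50. Rab6a rose by 2.07 ± 0.40 on the log2 scale (adjusted p = 0.0053). Rab1a and Rab14 had log2 fold changes of 0.39 and -0.70 (0.32 and 0.19), with -0.02 (0.91) for Rab1a without WT 50 and -1.24 (0.039) for Rab14 without WT 52. Rab34 and Rab39 were at least 14.2-fold and 13.5-fold higher in E12, with no count in WT, and their calls were lost with level-matched offsets (adjusted p = 0.051 and 0.068) and without any of 8 single libraries, all but E12 1 (0.051 to 0.12 for Rab34 and 0.053 to 0.095 for Rab39). Of the 34 Rab genes without a call in E12, Rab36, at 0 in WT, was at least 8.51-fold higher, and the others ran from Rab42 at -1.87 to Rab7b at 1.96 on the log2 scale, and Rab7b was called higher without WT 51 (adjusted p = 0.0032).

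In E12 against VF, 2 mutants that differ in allele and in time, 1 Rab gene rose and 3 fell of 53, 1.89% and 5.66%, against 2.19% and 1.02% of all tested genes. This fit shares its estimate of spread with the WT libraries. A fit of the E12 and VF libraries alone called 7 Rab genes higher and 19 lower of 53, 13.2% and 35.8%, against 25.4% and 22.6% of all genes in that fit. All 10 tested granule Rabs but Rab3a and Rab26 were among the 19, which makes 8 lower.

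Rab27a stood at 25.6 ± 8.36 CPM in E12 and 94.1 ± 1.92 CPM in VF (SD, n = 3 each), a log2 fold change of -1.88 ± 0.35 (adjusted p = 0.028). Rab37 stood at 54.2 ± 13.6 CPM in E12 and 174 ± 9.88 CPM in VF, a log2 fold change of -1.68 ± 0.35 (0.038). Rab32 stood at 37.0 ± 6.76 CPM in E12 and 113 ± 9.80 CPM in VF, a log2 fold change of -1.61 ± 0.35 (0.044). For these genes no E12 library overlapped a VF library, as was so for most Rab genes.

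Rab27b, Rab44 and Rab38 missed the threshold in the fit of all 9 libraries, with log2 fold changes of -2.46 ± 0.59, -1.44 ± 0.33 and -0.72 ± 0.20 (adjusted p = 0.059, 0.052 and 0.094). They fell in the fit of E12 and VF alone, by DESeq2, on the deposited levels and without WT 50 or WT 52. Rab4a rose, at 84.0 ± 13.5 CPM in E12 and 32.0 ± 4.81 CPM in VF (SD, n = 3 each), a log2 fold change of 1.39 ± 0.28 (adjusted p = 0.034). Each of the calls of Rab27a, Rab37, Rab32 and Rab4a in the fit of 9 libraries was lost without any 1 VF or E12 library (adjusted p from 0.055 to 0.21), and those of Rab37 and Rab4a also without WT 51 (0.058 and 0.052). With level-matched offsets Rab4a rose and 4 Rab genes fell, namely Rab27a, Rab32, Rab44 and Rab6b, while the call of Rab37 was lost.

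The other members named in every comparison had no call between the mutants in this fit. Rab8a had a log2 fold change of -0.12 ± 0.21 in E12 against VF (adjusted p = 0.83), Rab5c of 0.09 ± 0.22 (0.89), Rab7 of 0.12 ± 0.32 (0.89) and Rab1a of 0.05 ± 0.30 (0.95). Rab11a, Rab14 and Rab5a had log2 fold changes of -0.66 ± 0.46, -0.09 ± 0.41 and 0.89 ± 0.56 (0.52, 0.94 and 0.46). In the fit of E12 and VF alone Rab11a fell (-0.62, adjusted p = 0.0019) and Rab5a rose (0.92, 0.0016), and Rab11a was also lower on the deposited levels (-1.03, 0.015) and without WT 50 (-0.66, 0.014). Between the mutants 12 of 13 erythroid markers rose and 5 of 11 megakaryocyte markers fell in E12. Of all tested genes 2.19% rose and 1.02% fell in the fit of all 9 libraries. The part of these markers in the Rab results was not tested.

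The proteins that switch and anchor Rabs were read from lists of 8 genes for prenylation and membrane extraction, 32 exchange factors, 36 GTPase-activating proteins and 44 effectors and motor adaptors. In VF against WT 3 of 8 tested genes of prenylation and extraction rose and 1 fell. Of 31 tested exchange factors 19 rose, of 36 GTPase-activating proteins 20 rose and 2 fell, and of 41 effectors 18 rose and 2 fell, where 27.7% of all tested genes were higher and 20.9% lower. The median log2 fold changes were 0.23, 1.47, 1.33 and 1.19, against 0.36 over all genes. These genes are long, with median lengths of 4805, 4599.5 and 5043.5 bases in the last 3 lists and 2802 bases over all tested genes. With level-matched offsets the counts were 2 higher and 2 lower, 3 and 6, 9 and 8, and 8 and 11, with medians of -0.48, -0.05, -0.21 and -0.13 against -0.54 over all genes, of which 14.5% were higher and 36.8% lower.

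In E12 against WT 2 genes of prenylation and extraction rose and 2 fell, 14 exchange factors rose, 15 GTPase-activating proteins rose and 1 fell, and 13 effectors rose, where 23.9% of all genes were higher and 18.1% lower. The medians were 0.31, 1.03, 1.14 and 0.98, against 0.36 over all genes. With level-matched offsets 1 rose and 2 fell, 3 and 3, 8 and 4, and 4 and 7, with medians of -0.20, -0.34, -0.04 and -0.14 against -0.38 over all genes, of which 10.7% were higher and 27% lower. In E12 against VF 1 gene of prenylation and extraction rose, 3 exchange factors fell and 1 effector fell, with 2.19% of all genes higher and 1.02% lower. In the fit of E12 and VF alone 3 genes of prenylation and extraction rose and 2 fell, 4 exchange factors rose and 7 fell, 7 GTPase-activating proteins rose and 10 fell, and 7 effectors rose and 13 fell, with 25.4% of all genes higher and 22.6% lower.

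**Figure D5:**
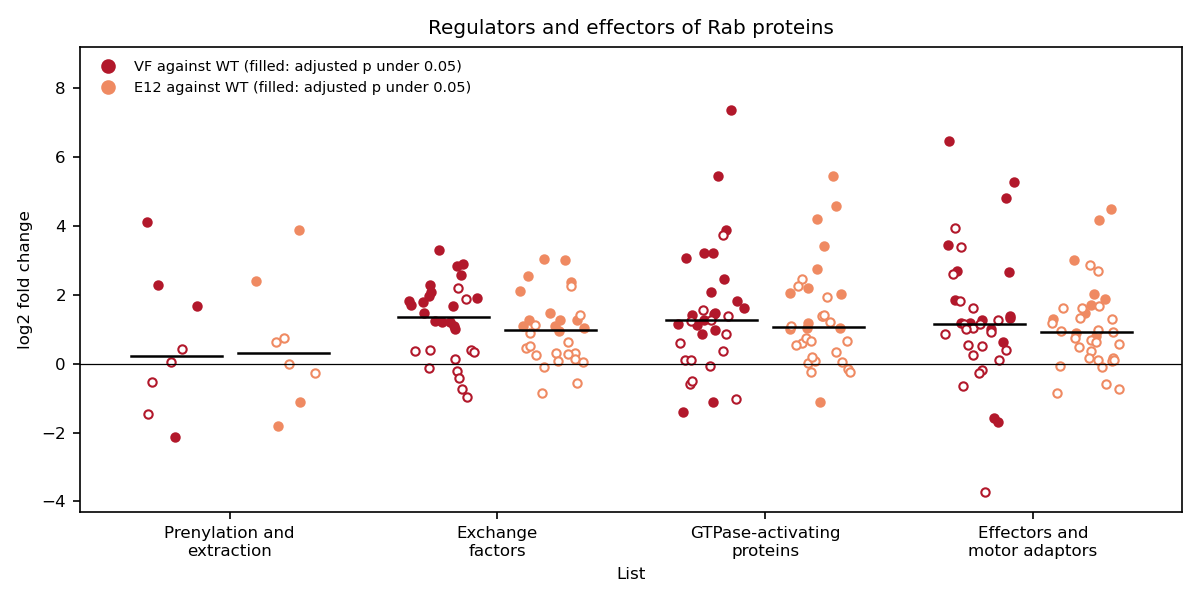
Points give the log2 fold change of VF and E12 against WT for each tested gene of the 4 lists with a count in WT, lines the median of the points, and filled points have an adjusted p under 0.05. The medians of exchange factors lie at 1.36 for VF and 0.99 for E12 before any correction for gene length. With level-matched offsets, which also equalise the library means, the median over the whole list for VF is -0.05. The median over all tested genes for VF is 0.36 without these offsets and -0.54 with them.

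Rabggtb, the catalytic subunit of the enzyme that puts prenyl anchors on Rabs, averaged 50.8 ± 3.29 CPM in VF, 103 ± 3.60 CPM in E12 and 224 ± 12.6 CPM in WT (SD, n = 3 each). Its log2 fold change was -2.14 ± 0.20 in VF against WT (adjusted p = 0.00019), -1.12 ± 0.19 in E12 against WT (0.0035) and 1.02 ± 0.19 in E12 against VF (0.029), the last lost without any 1 VF or E12 library (adjusted p from 0.1 to 0.19). With centred offsets the call in E12 against WT was lost (-0.37, 0.072). Chm, the escort protein that presents Rabs to this enzyme, rose in both mutants, with 15.6 CPM in VF, 13.2 CPM in E12 and 0.869 CPM in WT (adjusted p = 0.0047 and 0.0077 against WT). Gdi2, which takes inactive Rabs off membranes, had a log2 fold change of 0.41 in VF against WT (adjusted p = 0.28), with calls higher without WT 52 (0.54, 0.042) and on the deposited levels (1.33, 0.003).

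Rin3, an exchange factor of the Rab5 and Rab31 branch, averaged 104 ± 4.84 CPM in VF, 45.8 ± 11.3 CPM in E12 and 10.5 ± 1.69 CPM in WT (SD, n = 3 each). It rose in VF against WT (log2 fold change 3.31 ± 0.26, adjusted p = 0.00013) and in E12 against WT (2.13 ± 0.25, 0.00093), and fell in E12 against VF (-1.18 ± 0.24, 0.037), a call lost without any 1 VF or E12 library (adjusted p from 0.059 to 0.2). Mon1b, part of the exchange factor of Rab7, rose in both mutants against WT, by 2.57 in VF and 2.53 in E12. Ocrl, a phosphatase that binds several Rabs, rose by 2.71 in VF and 2.02 in E12, and Rabgap1 by 3.08 and 2.74, all as log2 fold changes. With level-matched offsets the calls of Rin3 and Ocrl in E12 (adjusted p = 0.08 and 0.083) and of Mon1b in VF (0.055) were lost.

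Among effectors of Rab27, Sytl1 had 793 counts over VF, 227 over E12 and none over WT, at least 269-fold and 80.5-fold higher than in WT. Sytl4, known as granuphilin, averaged 3.47 ± 0.427 CPM in E12 and 13.1 ± 1.98 CPM in VF (SD, n = 3 each), a log2 fold change of -1.91 ± 0.39 in E12 against VF (adjusted p = 0.035), a call also lost without any 1 of these libraries (0.12 to 0.2). Exoc6, a subunit of the exocyst that binds Rab11 and is mutated in mice with defective transferrin cycling, rose in VF (1.39 ± 0.30, 0.0054) and in E12 (1.88 ± 0.30, 0.0028) against WT. Optn, an effector of Rab8, averaged 43.6 CPM in VF and 141 CPM in WT and fell (log2 fold change -1.69 ± 0.30, adjusted p = 0.0024).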

How the data were processed

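The authors deposited whole-number counts per gene for 17769 genes, with a gene length in bases, and expression levels that appear to be on a log2 scale, whose making no source used here describes and which served as an alternative. STAR, limma, GRCm38 and mm10 are named in the submitters' processing notes, without roles or versions, and for the counter and the annotation they name none (not given in the sources used here).

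Deposited counts went into edgeR 4.0.16 (R 4.3.3) unchanged. The filter filterByExpr kept 13608 genes, libraries were scaled with TMM factors, and 9 libraries entered 1 quasi-likelihood fit (glmQLFit, glmQLFTest) with group as its only term. P-values are two-sided, and calls are at a Benjamini-Hochberg adjusted p under 0.05 across the 13608 genes. The SE of a log2 fold change is its size over the root of the F statistic. The fit was also run on simulated counts, and no outcome of that run is given here. With 3 against 3, an exact permutation test cannot go below 0.1. Against a WT group with 0 counts, folds were computed from 3 counts for the whole group and given as lower bounds. Setting such genes to their bound left the medians of all lists as printed. Intervals and floors cover counting error only.

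The Rab genes, roles, lists and alternatives were chosen with earlier results of these data known. Per comparison the text names the 6 called Rab genes in each direction that changed most, provided the higher group averaged 10 CPM or more and the groups did not overlap, a set of 14 Rab genes in every comparison, and the 3 regulators per list with the smallest p, with Gdi2, Chm, Exoc6 and Sytl4, though not every one is described and one regulator is not reported here. Other Rab genes are named inside their role.

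Alternatives were RLE and upper-quartile factors, no filter and a minimum count of 30, DESeq2 1.42.0, limma-voom and limma on the deposited levels (limma 3.58.1), fits of 2 groups alone, length offsets, a replicate block and leaving out libraries. Offsets for length and GC content (known for 93.9% of tested genes, from GENCODE M21), centred or level-matched, were chosen after seeing the data. Each is a spline with 5 degrees of freedom per library. Gene positions and promoter windows are RefSeq, GRCm38.p6, 1-based. Exon overlaps are from GENCODE M21, and shared sequence was searched with BLAST 2.17.0 at 97% identity over 100 bases. Figures were drawn with matplotlib 3.10.9.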

Additional observations from a re-analysis of the deposited data

Results flagged for a closer look

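The effects against WT differed between E12 and VF for 4 Rab genes, by the test of E12 against VF in the fit of all 9 libraries. Rab27a (log2 fold change -1.88), Rab37 (-1.68) and Rab32 (-1.61), all of granules, were lower in E12 than in VF. Rab4a, of fast recycling, was higher in E12 than in VF (1.39). The 2 mutants also differ in the time after tamoxifen, so allele and time cannot be told apart. In all 4 genes the E12 libraries did not overlap the VF libraries. The same held for most Rab genes, among them Rab11a and Rab44, which had no call in this fit. It also held for uncalled genes with small log2 fold changes, such as Rab8a (-0.12), Rab43 (0.17) and Rab11b (-0.20). The lack of overlap thus does not set the 4 genes apart. Each of the 4 calls was lost without any 1 VF or E12 library. The fit of E12 and VF alone called 7 Rab genes higher and 19 lower of 53.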

How the results depend on the processing

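In VF against WT the count of Rab genes that rose was within 1.5 times of 20 under every alternative but the replicate block (9), and was 16 to 23 leaving out 1 library. The count that fell was 8 by DESeq2, 3 with the 2 groups alone, 12 with level-matched offsets and 2 with the replicate block. Leaving out 1 library it was 3 (without VF 1, VF 2 or VF 3) to 10 (without WT 51), with 8 without WT 50 or WT 52. In E12 against WT the count that rose was 6 with the 2 groups alone, 8 with level-matched offsets, 3 with the replicate block, and 8 (without E12 2) to 14 without 1 library. The count that fell was 10 with level-matched offsets, 1 with the block, and 3 (without E12 2 or E12 5) to 11 (without WT 52). In E12 against VF the count that rose was 7 with the 2 groups alone, 2 without WT 50 and E12 5, and 0 with RLE factors, upper-quartile factors, no filter (2 to 3 genes at an unadjusted p under 0.05 by edgeR; 1 call by DESeq2) or the replicate block (2), and 0 to 2 without 1 library. The count that fell was 1 with no filter, 9 by DESeq2, 9 on the deposited levels, 19 with the 2 groups alone, 7 with length offsets, 7 with centred length and GC offsets, 0 with the block (9 unadjusted), 11 without WT 50 and E12 5, and 0 (without any 1 VF or E12 library, 8 to 11 unadjusted) to 12 (without WT 50). The share of calls that were higher among all genes was 28.2% with level-matched offsets, against 57.0%, in VF, and 28.4%, against 56.9%, in E12. Among values of the named genes called in either fit, signs turned for Rab14 in VF on the deposited levels (0.63), Rab1a (-0.55) and Sytl4 (-0.40) in VF with level-matched offsets, and Rabac1 in E12 with length offsets (0.24), and outside the rule for naming also for Rab8b (-0.47) and Rab10 (-0.44) in VF with level-matched offsets. The cause was not tested. Over the named Rab genes and alternatives 961 values kept direction and side of the threshold, 96 lost the call, 69 gained one, 2 turned with a call and 38 turned with no call in either fit. Groups VF and E12 share the replicate numbers 1 and 2, whose deviations correlated at 0.01 and 0.103. Pairs with different numbers ran from -0.198 to 0.227. With so few libraries these values cannot show whether those of the same number were handled together.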

Other observations

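The ratios of close relatives among the Rab genes were compared over 7 pairs, which were chosen after their values were seen. The ratio of Rab4a to Rab4b, as RPKM, was 0.475 ± 0.085 in VF, 2.03 ± 0.13 in E12 and 3.13 ± 1.27 in WT (SD, n = 3 each), so that Rab4b was the more abundant of the pair in the VF libraries and Rab4a in all others. The ratio of Rab8a to Rab8b was 5.55 ± 0.53 in VF, 3.55 ± 0.40 in E12 and 37.0 ± 10.6 in WT. That of Rab5c to Rab5a was 4.71 ± 0.78 in VF, 2.69 ± 0.30 in E12 and 5.18 to 40.7 in WT, and that of Rab5c to Rab5b was 3.02 ± 0.27 in VF, 4.37 ± 0.23 in E12 and 9.89 to 74.5 in WT. That of Rab1a to Rab1b was 0.472 ± 0.008 in VF, 0.559 ± 0.136 in E12 and 0.303 ± 0.021 in WT. Rab27a and Rab27b were both higher in VF than in WT (log2 fold changes 2.52 and 3.91), with a ratio of 2.00 ± 0.18 in VF, 2.95 ± 0.63 in E12 and 3.39 to 10.4 in WT. The ratio of Rab11a to Rab11b was 3.70 ± 0.10 in VF and 2.71 ± 0.40 in E12, against 3.14 and 3.44 in WT 51 and WT 52 and 15.3 in WT 50. An exact permutation test of 3 against 3 cannot go below 0.1, so no test was made. Rab4a and Rab4b measure 1412 and 1170 bases, while Rab8a and Rab8b measure 2012 and 4751 bases. Genes longer than 5 kb took 14.7% to 15.2% of the counts in VF, 14.2% to 16.3% in E12 and 4.37% to 7.92% in WT, and the part of length in these ratios was not tested.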
